A study of Mus musculus with 6 samples.

Results

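The genes described are 32 genes of glycolysis, glucose uptake and the hypoxia response, taken from a list of names: 2 glucose transporters, the enzymes that break glucose down to pyruvate and lactate, the transporters and kinase that decide where pyruvate and lactate go, the oxygen-regulated factor Hif1a, its oxygen sensors and a set of its targets. They were measured in CD4 T cells with the transgenic OT-II receptor for an ovalbumin peptide, either wild type (WT) or deficient in SAP, the adaptor protein encoded by Sh2d1a. Of the 32 genes, 29 had a probe set assigned to that gene alone, out of 18194 genes measured in this way. Gapdh was represented only by probe sets shared with related sequences and by array control probe sets, and no probe set was named for Gpi1 or Eno1 in the annotation used.

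Both genotypes shared the receptor transgene and the culture. Naive CD4 T cells, sorted as CD44 low, CD62L positive and CD25 negative from spleen and lymph nodes, spent 3.5 days in culture beside mitomycin C-treated, T-depleted splenocytes that presented the peptide, so RNA of those presenting cells can be in the samples. The Tfh-like medium contained IL-21 at 50 ng/ml together with IL-6 at 100 ng/ml. Antibodies blocked TGF-β (20 µg/ml), IL-4 (10 µg/ml), and also IL-12 and IFN-γ. Each genotype had 3 arrays. These are numbered 1 to 3 in accession order, and the labels do not pair equal numbers. Nor do they tell whether mice or cultures differed between arrays, so a p-value reflects only how far these arrays spread. The labels do not give the age of the mice or the allele that removes SAP.

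Glycolysis splits glucose into pyruvate in the cytosol, and activated T cells use it heavily even when oxygen is present, passing much of the pyruvate to lactate. Receptor and cytokine signals raise the factor HIF-1α, and low oxygen keeps it from being destroyed: prolyl hydroxylases of the EGLN family mark it for degradation when oxygen is plentiful. HIF-1α in turn activates genes for glucose transporters, most glycolytic enzymes, lactate export and the block of pyruvate entry into mitochondria, so these genes often move together.

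In the 6 arrays the measured members lay between means of 6.66 and 13.44 on the log2 scale, all at or above the median level of all genes (6.58). Arrays with the same number resembled each other across genotypes. Over all genes other than the members, each array's deviations from its genotype mean correlated by 0.57, 0.82 and 0.67 for equal numbers and between -0.61 and -0.09 for unequal ones. These deviations sum to 0 within a genotype, which pushes the latter down. Sex-linked transcripts differed between numbers too, with the Y-linked gene Eif2s3y at 3.54 and 2.91 in replicate 1 and between 9.76 and 9.98 in the other 4 arrays. Xist, the RNA of the inactive X chromosome, was at 12.50, 8.21 and 5.81 in WT and at 12.50, 8.19 and 6.26 in SAP-deficient cells, so replicate 2 lay apart from replicate 3 as well as from replicate 1. The arrays of a genotype thus differed in the sex-linked RNA of their source, and technical spread alone does not describe them. Sh2d1a was at 9.50, 8.52 and 9.39 in WT replicates 1 to 3 and at 5.47, 4.10 and 4.92 in SAP-deficient ones, a difference of -4.31 (limma, adjusted p = 0.107, and 9.84e-07 with the replicate number as a block). Of the markers of the labelled cells, the T cell receptor chain gene Cd3d was between 12.78 and 13.03 and Il21 between 11.54 and 12.57, while Cxcr5, between 5.01 and 6.12, lay under the median level.

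The members differed far more between replicate numbers than between genotypes. In replicate 2 of both genotypes they were lower than elsewhere: 27 of the 29 were lowest in replicate 2 of WT cells and also in replicate 2 of SAP-deficient cells, where 22.8% of all genes, and 23.8% of genes at or above the median level, had this order. In the same 27 members both replicate 2 arrays lay under all other 4 arrays (17.6% of all genes, 20.8% of those at or above the median level). None was highest in replicate 2 of both genotypes, as 21.3% of all genes were. The exceptions were Hif1a and Pfkfb4. Against the mean of replicates 1 and 3, the median member was lower in replicate 2 by a difference of -0.37 (log2), a 1.30-fold lower level, while the median of all genes was -0.02. For 21 of the 29 members this difference was among the lowest 10% of all genes. Because the numbers come from accession order and group arrays that resemble each other, these orders are a description and were not tested. The samples are bulk RNA, so fewer cells of a type and less RNA per cell cannot be told apart.

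**Figure D1:**
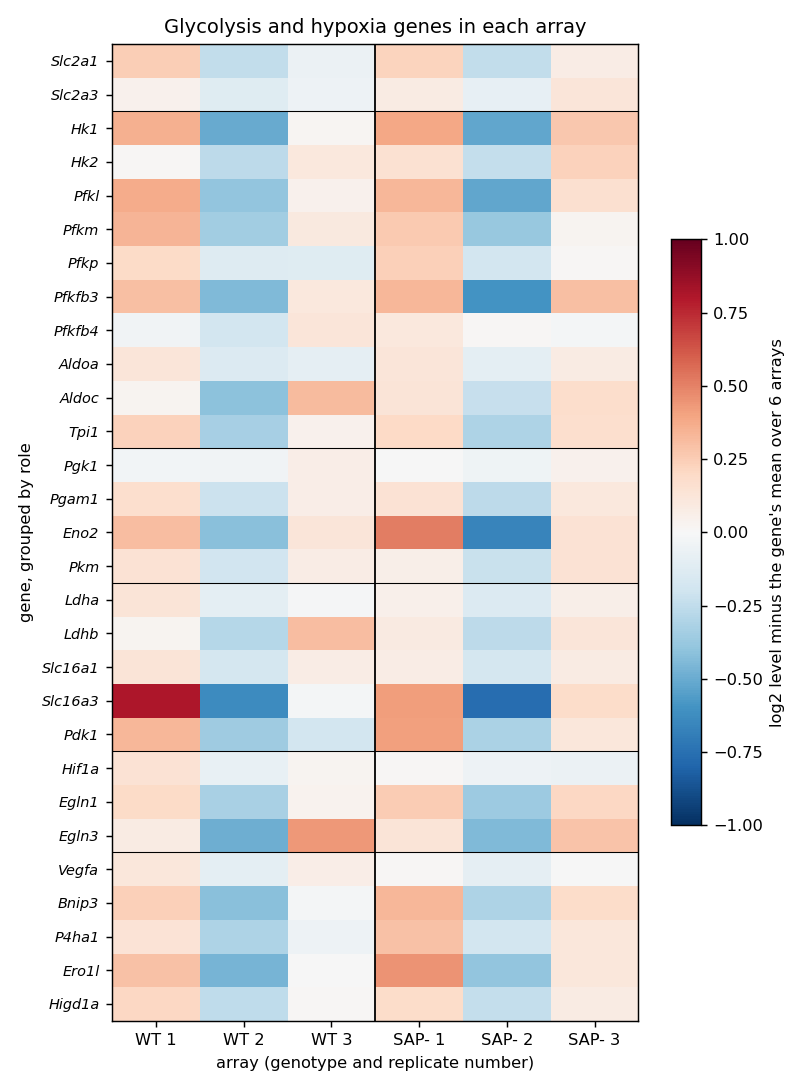
Heat map of the 29 measured members (rows, grouped by role) in the 6 arrays (columns; WT and SAP-deficient, written SAP-, replicates 1 to 3), coloured by the log2 level minus the gene's mean over the 6 arrays. The 2 replicate 2 columns are blue for nearly every gene, while Hif1a, Pgk1 and Pfkfb4 stay close to white in all columns. Other members with small deviations, such as Vegfa and Slc2a3, are similarly pale.

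The size of the difference varied widely among members. The range over the 3 replicate-number means, each the mean of both genotypes, had a median of 0.48 and ran from 0.09 in Pgk1 (1.07-fold) to 1.32 in Slc16a3 (2.49-fold). It was 0.5 or more in 13 of the 29 members and in 15.1% of all genes (22.2% of those at or above the median level). Replicate numbers held a median of 95% of a member's variance against 66.9% for all genes and 80.9% for genes at or above the median level. In 22 of the 29 they held 90% or more, as in 20.4% of all genes and 32.1% of those at or above the median level. This share rested on replicate 2: without its 2 arrays the median was 63.5% for members and 48.1% for all genes. A difference in level limits the comparison between members. The 4 members with a mean of 13 or more, near the highest deposited value of 14.2, had ranges from 0.09 to 0.32, and the other 25 had ranges from 0.14 to 1.32; whether signals near the top of the scale are compressed was not tested.

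**Figure D2:**
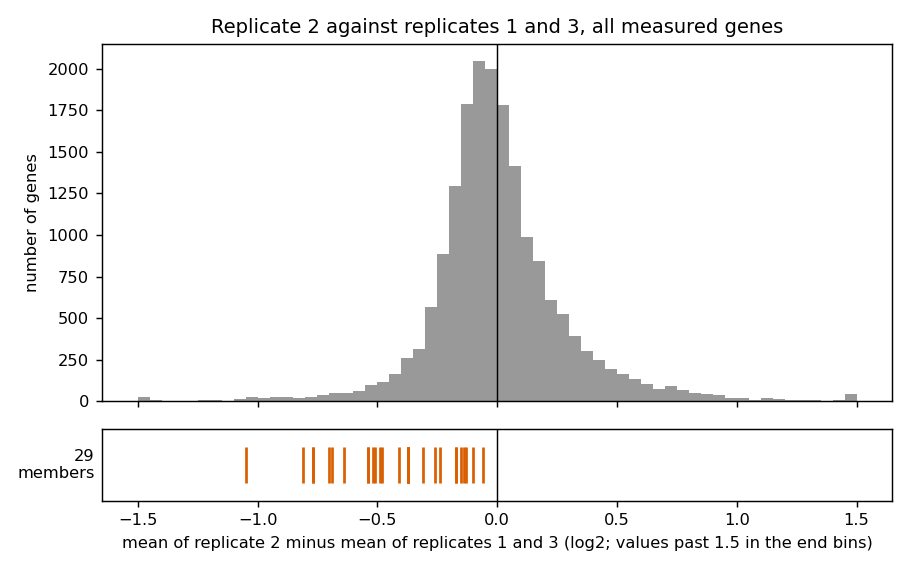
Upper panel, histogram of the difference between the mean of replicate 2 and the mean of replicates 1 and 3 (log2, both genotypes averaged) over 18194 genes; lower panel, the same difference for each of the 29 members as a tick. All 29 ticks lie under 0, from -1.05 to -0.06, and all genes have a median of -0.02.

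Stretches of the promoters show the letters that HIF-1α is known to bind, the core of the hypoxia response element, in members that were low in replicate 2 and in the 2 that did not have this order. Promoters were taken from RefSeq (GRCm38.p6), which gave a window for 31 of the 32 genes, and only the 250 bases before each start were searched. The core was searched as ACGTG or GCGTG on both strands (CACGT and CACGC on the reverse). CACGTG, the site of MYC and related factors, contains ACGTG on both strands and so counts as a core as well. The genes shown were picked by name, and for a gene with several windows the one with the most cores is shown. The other window of Pdk1 held 0 cores and that of Ldha held 1. Each stretch runs 5′ to 3′ in the direction of the gene, from 15 bases before the first core to at most 15 after the last, with the cores in capitals. They lie at chr11:120949025-120949066 (plus strand, Slc16a3), chr14:45318616-45318715 (minus, Ero1l), chr2:71873131-71873165 (plus, Pdk1), chr7:138909522-138909638 (minus, Bnip3), chr7:46845644-46845789 (plus, Ldha), chr9:108991770-108991804 (plus, Pfkfb4) and chr12:73907717-73907816 (plus, Hif1a).
Slc16a3: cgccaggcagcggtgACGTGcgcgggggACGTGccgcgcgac
Ero1l: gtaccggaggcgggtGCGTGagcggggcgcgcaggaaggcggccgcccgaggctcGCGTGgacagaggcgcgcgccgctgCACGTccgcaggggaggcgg
Pdk1: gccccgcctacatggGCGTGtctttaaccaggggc
Bnip3: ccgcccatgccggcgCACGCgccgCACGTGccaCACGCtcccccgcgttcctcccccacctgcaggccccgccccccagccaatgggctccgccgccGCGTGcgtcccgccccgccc
Ldha: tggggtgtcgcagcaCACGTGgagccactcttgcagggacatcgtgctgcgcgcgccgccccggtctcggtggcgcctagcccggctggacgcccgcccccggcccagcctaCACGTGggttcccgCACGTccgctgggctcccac
Pfkfb4: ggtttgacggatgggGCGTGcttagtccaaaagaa
Hif1a: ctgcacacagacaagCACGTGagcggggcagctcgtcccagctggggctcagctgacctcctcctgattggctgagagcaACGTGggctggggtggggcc

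A core was present before the start of 28 of the 31 genes, with Eno2, Gpi1 and Tpi1 as the genes without one in the searched windows. Over all genes with a window the share was 41.5%, and over genes measured at or above the median level it was 64.2%. Genes with more than 1 start were counted if any window held it. Counted by window, a core was present in 36 of 45, against 38.6% of all windows. The list includes genes named as targets of HIF-1α, so these counts only describe a chosen list. The whole motif CACGTG was present in 6 of the 31 (6.86% of all genes, 10.5% of those at or above the median level). GGGCGG, a motif bound by SP1, was present in 23 of the 31, against 35.4% and 65.6%. Hif1a and Pfkfb4 held cores, and Eno2, with none in its window, had one of the widest ranges between replicate numbers. A relation of cores to the range over the members was not tested. A match is only a match of letters and does not show binding.

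Glucose uptake is the first step. Slc2a1, which encodes the transporter GLUT1, was at 12.15, 11.66 and 11.85 in WT replicates 1 to 3 and at 12.13, 11.66 and 11.98 in SAP-deficient replicates 1 to 3. Both genotypes had the same value in replicate 2, under all other arrays, and the 2 genotypes overlapped throughout. The difference of SAP-deficient minus WT was 0.04 with a 95% interval of -0.33 to 0.40, and 2 further Slc2a1 probe sets were lowest in replicate 2 as well. Slc2a3, encoding the high-affinity transporter GLUT3, was at 12.97, 12.81 and 12.88 in WT and at 13.01, 12.85 and 13.05 in SAP-deficient cells. Its range over replicate numbers was 0.16 by this bright probe set but 0.81 and 0.92 by the 2 dimmest ones of 4, so its probe sets differ in how far they spread. SAP-deficient cells were higher in each number, by 0.04, 0.04 and 0.17, for a difference of 0.08 (-0.08 to 0.24).

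Hexokinases trap glucose in the cell by phosphorylation. Hk1 was at 10.85, 9.99 and 10.51 in WT and at 10.88, 9.97 and 10.76 in SAP-deficient cells, a range of 0.89 over replicate numbers against differences of 0.04, -0.02 and 0.25 between genotypes within them. A second Hk1 probe set had a range of 1.38. Hk2, the isoform induced on T cell activation, was at 12.14, 11.87 and 12.23 in WT and at 12.28, 11.89 and 12.36 in SAP-deficient cells. Its replicate 2 arrays were again the lowest, but replicate 3 rather than 1 was highest. The genotype difference of Hk2 was 0.09 (-0.24 to 0.43).

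Phosphofructokinase commits sugar to glycolysis, and the PFKFB enzymes set the level of its activator, fructose 2,6-bisphosphate. Of its 3 subunit genes, Pfkl was at 10.88, 10.11 and 10.55 in WT and at 10.84, 9.99 and 10.67 in SAP-deficient cells. Pfkm and Pfkp had the same order, with ranges of 0.66 and 0.37. A further, dim Pfkl probe set did not follow, being lowest in replicate 1 of both genotypes (7.73 and 7.33). Pfkfb3 was at 9.19, 8.45 and 8.99 in WT and at 9.22, 8.29 and 9.19 in SAP-deficient cells, whereas Pfkfb4 was between 7.22 and 7.52 in all arrays, lowest in replicate 2 of WT and in replicate 3 of SAP-deficient cells. By these probe sets the 2 PFKFB genes differed in range, 0.83 against 0.14. A second, dimmer Pfkfb3 probe set had a range of 0.31.

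Aldolase and triose phosphate isomerase split the sugar and interconvert the products. Aldoa was at 13.30, 13.04 and 13.09 in WT and at 13.30, 13.08 and 13.26 in SAP-deficient cells. All of its 5 probe sets were lowest in replicate 2. Aldoc and Tpi1 were lowest there too, with ranges of 0.57 and 0.54, but Aldoc was highest in replicate 3. The genotype difference of Aldoa was 0.07 (-0.13 to 0.26).

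In lower glycolysis, which yields ATP, the spread depended on the gene. Gapdh, encoding the dehydrogenase of this segment, was seen through an array control probe set for the 3′ part of its transcript, at 13.75, 13.60 and 13.68 in WT and at 13.71, 13.57 and 13.72 in SAP-deficient cells; this probe set was not part of the fit. Replicate 2 was lowest in both genotypes there and also by the control probe sets for the 5′ and middle parts. Pgk1, whose enzyme makes the first ATP, was between 13.40 and 13.51, and its 2 other probe sets were not lowest in replicate 2 of both genotypes. Pgam1 and Pkm, which carry the last steps with enolase, had ranges of 0.40 and 0.32. Eno2, an enolase gene best known from neurons, was at 6.97, 6.24 and 6.78 in WT and at 7.17, 6.0 and 6.81 in SAP-deficient cells, a range of 0.95 (1.93-fold).

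By the probe set that represents each gene, Slc16a3, encoding the lactate exporter MCT4, had the widest range of the 29 members; the second Hk1 probe set was wider still. Slc16a3 was at 9.12, 7.68 and 8.29 in WT and at 8.73, 7.55 and 8.49 in SAP-deficient cells. Replicate 1 was highest and replicate 2 lowest in both genotypes, and the genotypes differed by -0.39, -0.13 and 0.20 within numbers, in both directions. The difference over all arrays was -0.11, and its interval of -1.08 to 0.87 was the only one among the members that reached beyond 1 log2 unit (2-fold) on either side. Slc16a1, encoding the lactate carrier MCT1, had a range of 0.28 by its brighter probe set. Ldha, which turns pyruvate into lactate, was at 13.49, 13.26 and 13.35 in WT and at 13.41, 13.22 and 13.42 in SAP-deficient cells, with a difference of -0.02 (-0.19 to 0.16). Ldhb, the isoform that favours the reverse reaction, had a range of 0.48.

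Pdk1 encodes a kinase that blocks the entry of pyruvate into mitochondria. It was at 10.39, 9.70 and 9.87 in WT and at 10.47, 9.74 and 10.17 in SAP-deficient cells, with replicate 1 high and replicate 2 low. The genotypes differed by 0.07, 0.04 and 0.30 within numbers, for a difference of 0.14 (-0.41 to 0.68). By 2 of its 4 probe sets the order was not the same, since WT replicate 3 was as low as WT replicate 2 (9.29 and 9.30 by one, 7.98 and 8.0 by the other).

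Hif1a itself barely varied by the probe set that represents it, at 12.74, 12.52 and 12.62 in WT and at 12.60, 12.54 and 12.53 in SAP-deficient cells. Its 4 probe sets differed in this: 2 dimmer ones were lowest in replicate 2 of both genotypes, with ranges of 0.38 each. The genotype difference was -0.07 (-0.22 to 0.09). The oxygen sensor gene Egln3, which HIF-1α also induces, was at 12.53, 11.96 and 12.88 in WT and at 12.58, 12.01 and 12.73 in SAP-deficient cells, so that replicate 3 was highest and the genotypes differed by 0.05, 0.04 and -0.14. Egln1, the main oxygen sensor, had a range of 0.57. A second probe set of each had a wider range, 1.13 for Egln3 and 0.82 for Egln1.

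Among the other hypoxia targets, Ero1l (now Ero1a), which drives disulfide bond formation in the endoplasmic reticulum, was at 12.73, 11.97 and 12.43 in WT and at 12.88, 12.04 and 12.55 in SAP-deficient cells. SAP-deficient cells were higher by 0.14, 0.07 and 0.12 within numbers. P4ha1, a subunit of the collagen prolyl hydroxylase, was at 9.95, 9.50 and 9.76 in WT and at 10.10, 9.63 and 9.92 in SAP-deficient cells, higher by 0.15, 0.13 and 0.16. Bnip3, which marks mitochondria for removal, was higher by 0.09, 0.11 and 0.20 and had a range of 0.64 over numbers. Higd1a, a mitochondrial protein gene, and Vegfa, the vascular growth factor gene, had ranges of 0.44 and 0.15. By the representing probe sets, all 5 targets were highest in replicate 1 and lowest in replicate 2 of both genotypes. Second probe sets of Vegfa and P4ha1 were also lowest in replicate 2, but highest in replicate 3. The other Higd1a probe sets were highest in replicate 3 and not lowest in replicate 2 of both genotypes. Of the 29 members, 19 were highest in replicate 1 of both genotypes by the representing probe sets. The shares were 16.1% of all genes and 20.6% of those at or above the median level.

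**Figure D3:**
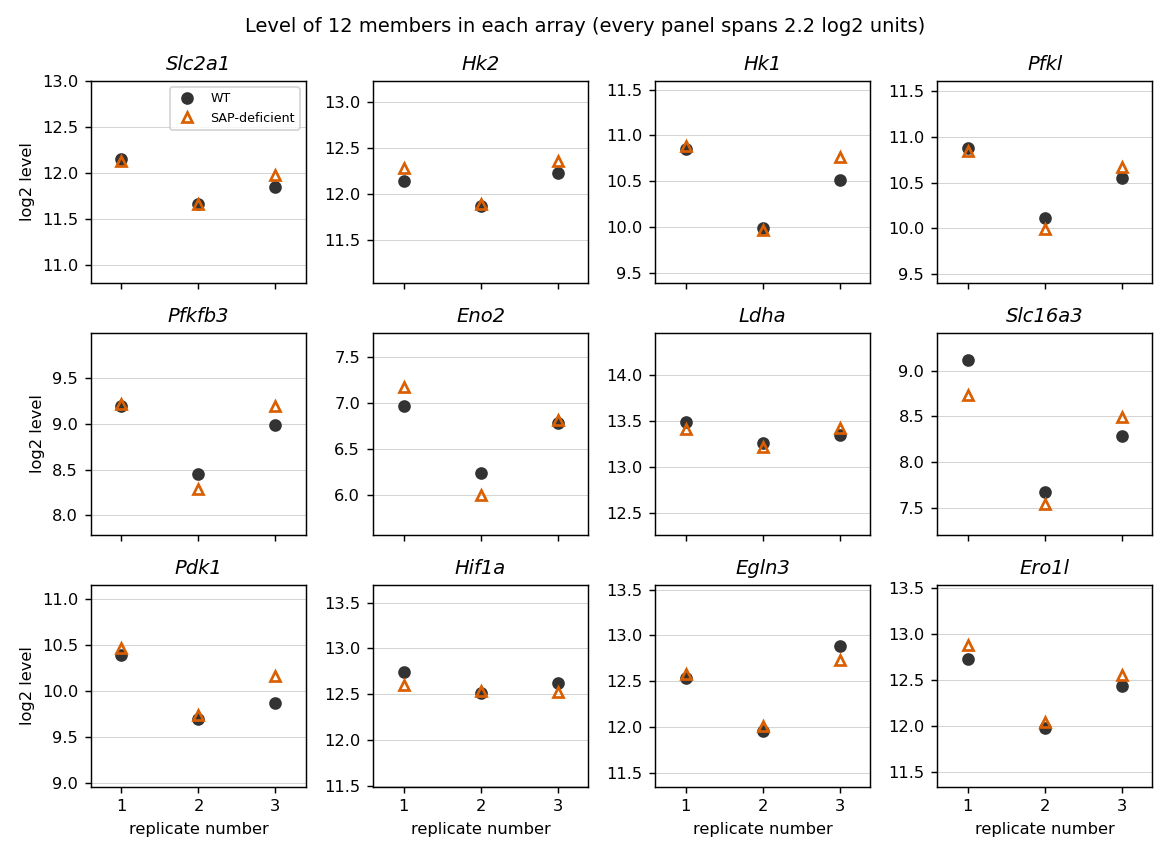
Log2 level of 12 members (y axis, 2.2 log2 units in every panel) by replicate number (x axis) for WT (filled circles) and SAP-deficient cells (open triangles), 1 point per array. In 11 panels both replicate 2 points are the lowest, whereas Hif1a is nearly level, between 12.52 and 12.74.

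Between genotypes no member was called. Limma, with Benjamini-Hochberg adjustment over 18194 genes, gave 0 of 29 members an adjusted p under 0.05 and 0 of 29 an unadjusted p under 0.05; all adjusted p-values were 1.00. Over all genes the shares were 0.0% and 1.46%. Differences of SAP-deficient minus WT ran from -0.11 (Slc16a3) to 0.15 (P4ha1) with a median of 0.03 (all genes 0.01), and 16 of the 29 were above 0, as were 53.3% of all genes and 62.6% of those at or above the median level. No member had every SAP-deficient array above or every one under the WT arrays, orders that 2.38% and 2.94% of all genes had. The 95% interval lay within 2-fold in either direction for 28 of the 29 members (97.6% of all genes) and within 1.5-fold for 19 (86.2%), and the widths differed between members, from -0.10 to 0.10 in Pgk1 to that of Slc16a3. These intervals come from the fit without replicate numbers, so the spread between numbers is part of them. In the same fit Sh2d1a, at -4.31, was not called either (limma, adjusted p = 0.107). A lack of calls there therefore does not show equal levels. The range over replicate numbers was wider than the mean size of the genotype difference within numbers in 28 of the 29 members, Pfkfb4 being the exception, and in 78.6% of all genes.

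**Figure D4:**
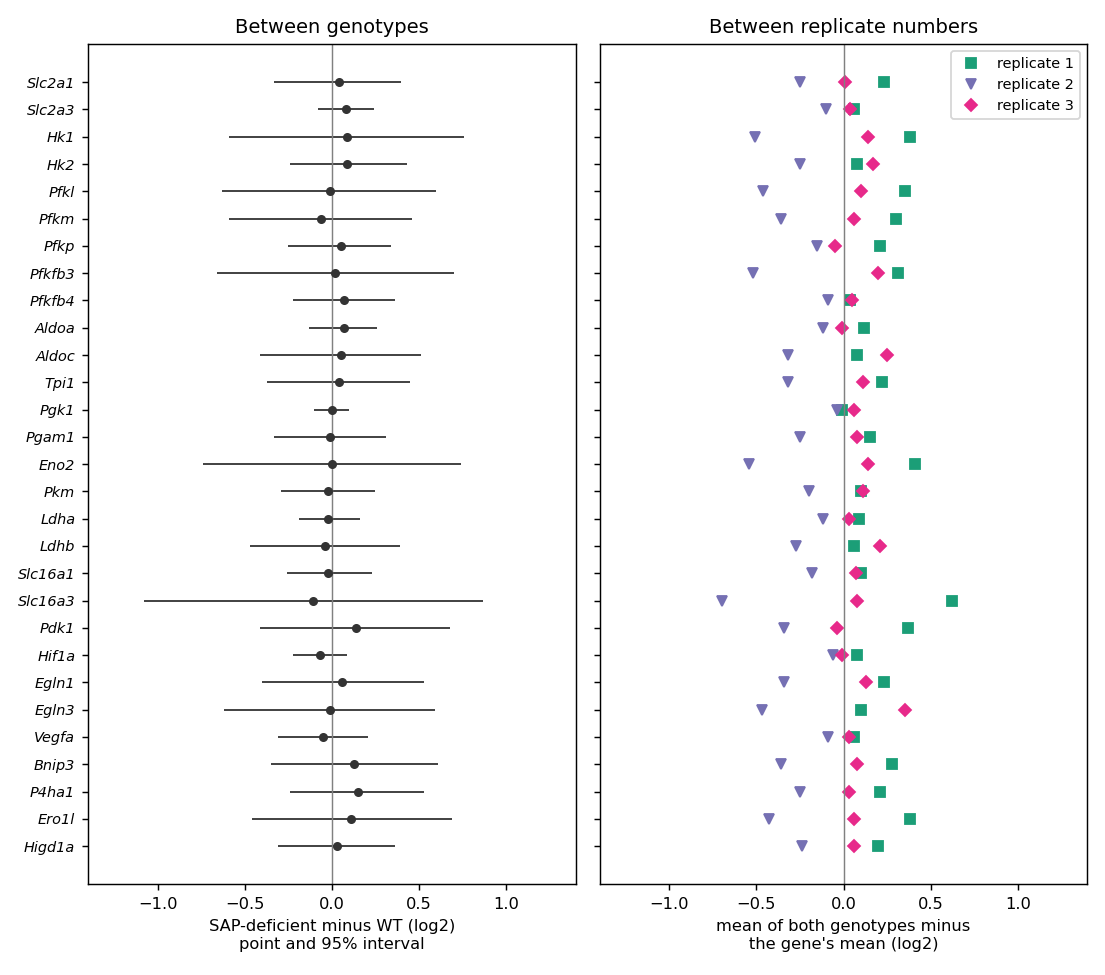
Left, difference of SAP-deficient minus WT (log2) for each of the 29 members with its 95% interval from limma; right, mean of both genotypes in replicates 1, 2 and 3 minus the gene's mean (log2). Every interval on the left crosses 0, and on the right replicate 2 is the leftmost point of each gene.

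With the replicate number as a block, which takes out the differences between numbers, 3 members had an unadjusted p under 0.05, all higher in SAP-deficient cells, against 6.65% of all genes in either direction and 3.8% for higher ones (5.46% among genes at or above the median level). They were Ero1l (0.11, 95% interval 0.02 to 0.20), Bnip3 (0.13, 0.03 to 0.24) and P4ha1 (0.15, 0.02 to 0.28). None was called: their adjusted p-values over all genes were 0.695, 0.703 and 0.729 (limma), and 1 gene of 18194 (0.0055%), Sh2d1a, was called in that fit. SAP-deficient cells were higher in all 3 numbers for 6 members (Slc2a3, Hk2, Pdk1, Bnip3, P4ha1 and Ero1l) and lower in all 3 for 1 (Pfkm). Over all genes these shares were 15.6% and 13.1%, and over genes at or above the median level 20.7% and 9.44%. These orders and p-values are from the probe set that represents each gene, and other probe sets did not all follow. In replicate 2 a second P4ha1 probe set was at 7.71 in SAP-deficient cells against 7.80 in WT. Another Ero1l probe set was at 11.30 against 11.38 there. The members' median difference was 0.03, 0.01 and 0.12 within replicates 1, 2 and 3. In replicate 3 the mean of the proliferation markers was 10.51 in WT and 11.04 in SAP-deficient cells and that of MHC class II genes 8.41 and 7.90; the part of either in the members' difference was not tested.

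In the wider pathway some genes had the members' order and some had the reverse. Of 22 measured HIF targets outside the list, 12 were lowest and 3 highest in replicate 2 of both genotypes (22.8% and 21.3% of all genes), and their median difference of replicate 2 from replicates 1 and 3 was -0.15. P4ha2, encoding an alternative catalytic subunit to P4ha1, was at 10.03, 8.52 and 9.67 in WT and at 10.17, 8.79 and 9.76 in SAP-deficient cells, a wider range (1.44) than that of any measured member. Angptl4, a secreted lipase inhibitor gene, had the opposite order, highest in replicate 2 at 9.01 and 8.75 and otherwise between 7.76 and 8.31. With the block 5 of these 22 genes had an unadjusted p under 0.05, all higher in SAP-deficient cells: Car12, Ankrd37, Ak4, Ndrg1 and P4ha2, at 0.25, 0.18, 0.15, 0.12 and 0.17, named after their values were seen. Under the block 6.65% of all genes had such a p in either direction and 3.8% were higher, or 5.46% among genes at or above the median level. Their adjusted p-values lay between 0.685 and 0.729, and without the block none of the 22 had an unadjusted p under 0.05. The smallest p-values then were those of Car12, a carbonic anhydrase gene (0.25, -0.08 to 0.58), and Plod1, a collagen lysyl hydroxylase gene (-0.21, -0.60 to 0.17).

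Side branches of glucose metabolism were counted in the same way. Of 13 genes of the pentose phosphate and glycogen branches, 6 were lowest in replicate 2 of both genotypes and 3 highest. Over all genes these shares were 22.8% and 21.3%. The widest ranges of this list were those of Pygl and Gbe1. Pygl, the liver-type glycogen phosphorylase, was at 8.06, 6.53 and 7.81 in WT and at 7.96, 6.92 and 7.88 in SAP-deficient cells, and Gbe1, the branching enzyme, had a range of 0.98. By genotype the smallest p-values were those of the sugar phosphate genes Pgm2 (0.16, -0.09 to 0.41) and Rpia (0.12, -0.10 to 0.35). Of 12 genes of pyruvate entry into mitochondria, 4 were lowest in replicate 2 and 3 highest (22.8% and 21.3% of all genes). Pcx, encoding pyruvate carboxylase, had a range of 1.06 and Pdk3 one of 0.41, while the pyruvate carrier gene Mpc1, one of the 2 with the smallest p by genotype, was at 10.94, 10.98 and 10.90 over numbers. It differed by 0.06 between genotypes (-0.12 to 0.24), and Pdk2 by -0.08 (-0.36 to 0.19).

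Of 17 measured isoenzymes outside the list, 6 were lowest in replicate 2 of both genotypes and 2 highest (22.8% and 21.3% of all genes). The transporter gene Slc2a6 was highest there, at 9.98 and 10.04 in replicate 2 against 9.10 to 9.37 elsewhere. Adpgk, an ADP-dependent glucokinase, had a range of 0.57. Pgam2, the muscle-type mutase, was the only gene of these 6 lists of related genes with an unadjusted p under 0.05 by genotype (-0.27, -0.52 to -0.01; adjusted p = 1.00, limma), and Slc2a4 was at -0.26 (-0.62 to 0.09). Both were dim, with means of 5.83 and 5.82, under the median level of all genes.

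Among regulators the shares lowest in replicate 2 were close to the 22.8% of all genes. Over all genes 21.3% were highest there. Among 9 measured regulators of the HIF pathway 2 were lowest in replicate 2 and 1 highest, and Arnt, which pairs with HIF-1α on DNA, was at 7.91, 8.08 and 7.55 over numbers. By genotype the smallest p-values were those of Hif3a (0.14, -0.18 to 0.46) and Arnt2 (0.13, -0.20 to 0.45). Among 15 genes of glucose and growth control 3 were lowest and 3 highest in replicate 2. Txnip, which restrains glucose uptake, was highest there in both genotypes, at 9.42 and 9.27 against 8.60 to 9.10 elsewhere. Max, the partner of MYC, had the largest genotype difference of this list, 0.74 (-0.38 to 1.87), resting on WT replicate 3, which was at 7.88 against 9.46 to 10.01 in the other 5 arrays; without that array the difference was 0.13. Arrdc4, a relative of Txnip, differed by -0.23 (-0.67 to 0.21).

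Markers of other cells and of RNA quality were set beside the members' order. The mean of 8 macrophage and dendritic cell markers was 6.25 and 6.14 in replicate 2 and between 6.36 and 6.64 in the other arrays, and 5 of the 8 were lowest in replicate 2 of both genotypes. Of the T cell markers 4 of 7 were lowest there, with means of 11.35 and 11.29 against 11.52 to 11.72, and of the Tfh markers 4 of 5, with means of 9.43 and 9.35 against 9.48 to 9.83. This order was found in 1 of 8 B cell markers, 1 of 5 MHC class II genes, 0 of 7 proliferation markers, 2 of 4 neutrophil markers, 2 of 3 CD8 T and NK cell markers and 0 of 3 erythroid markers. Over all genes 22.8% had this order, and 23.8% of those at or above the median level. The marker lists are short and were not tested against these shares. RMA values have no true zero, but 7 of the 8 B cell markers, among them Cd79a (5.56 to 6.02), Ms4a1 (5.10 to 5.74) and Pax5 (4.86 to 5.32), lay under the median level in every array. The exception, Ebf1, was above it in every array (6.72 to 7.83). Of the 5 MHC class II genes, which presenting cells express, 4 were above it in every array, with Cd74 between 9.65 and 10.18 and H2-Ab1 between 9.51 and 10.31, and Ciita was under it (4.65 to 5.22). The 3′ minus 5′ difference of the array controls was between -0.03 and 0.02 for Gapdh and between 0.34 and 0.45 for Actb, with replicate 2 at 0.37 and 0.38 for the latter. Actb by its 3′ control was at 13.29 and 13.25 in replicate 2 and between 13.07 and 13.21 elsewhere, the reverse of Gapdh. The part of these lists in the members' order was not tested.

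**Figure D5:**
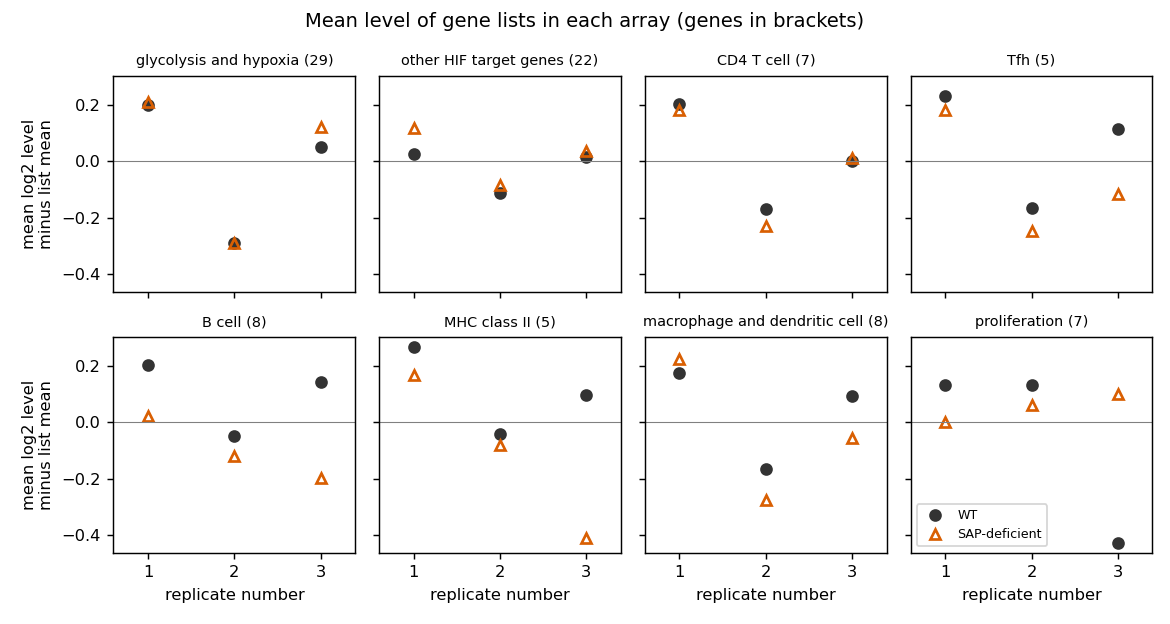
Mean log2 level of each gene list minus its mean over the 6 arrays (y axis) by replicate number (x axis), for WT (filled circles) and SAP-deficient cells (open triangles); the number of genes is in brackets. The glycolysis and hypoxia genes are low in replicate 2 in both genotypes alike. The other HIF targets and the CD4 T cell, Tfh, and macrophage and dendritic cell lists are also lowest there in both genotypes. The proliferation markers are low only in WT replicate 3 and the MHC class II genes lowest in SAP-deficient replicate 3.

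The order held across the members' probe sets in part. Of 67 single-gene probe sets of the 29 members, 56 were lowest in replicate 2 of both genotypes, among them 29 of the 38 not used to represent their gene. Of the 20 members with more than 1 probe set, 14 had this order in all of them. Probe sets outside it included 2 of Pgk1, 2 of Pdk1, 2 of Higd1a and 2 of Hif1a. Without replicate 1, 27 members were lower in replicate 2 than in replicate 3 of both genotypes (38.9% of all genes), and without replicate 3, 29 were lower in replicate 2 than in replicate 1 (36.9%).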

How the data were processed

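The authors deposited log2 expression values of 45101 probe sets on 6 arrays, made with Affymetrix Expression Console and RMA per the submitters' processing notes; their versions, the build and the annotation: not given in the sources used here. This normalization equalises the arrays' distributions (medians 5.73 to 5.77), so a change in total RNA per cell is hidden. Here 64 control probe sets were left out. The platform annotation gave 1 gene for 34945 probe sets, several for 932 and none for 9160, and 34741 of the first kind matched a RefSeq gene table (GRCm38.p6) by gene ID. For each of 18194 genes the brightest single-gene probe set, by its mean over all arrays, was used. Limma (3.58.1, R 4.3.3) fitted genotype alone, with eBayes and an intensity trend. The fit was tested on simulated data that held no differences between replicate numbers. That test therefore does not show how the fit performs with the spread between numbers seen here. Benjamini-Hochberg adjustment ran over all genes. Array number limits precision.

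The members and lists were chosen with earlier results of these data known. Values in every array are given for Slc2a1, Hk2, Ldha, Pdk1, Hif1a and Gapdh, for the 8 members with the largest SD between replicate-number means and for the 5 with the smallest p by genotype. Of each related list, the 2 genes with the largest such SD and the 2 with the smallest p are named. Alternatives were the replicate block, other eBayes settings, normalizations, filters and probe sets, and leaving out arrays.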

Additional observations from a re-analysis of the deposited data

How the results depend on the processing

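The count of called members was 0 in every alternative run (limma, adjusted p). The number with an unadjusted p under 0.05 was 0 in all but the fit with the replicate block, where it was 3. The median change of the members, 0.03, was -0.0011 when a gene's probe sets were averaged, and ran from -0.11 to 0.17 when single arrays were left out: leaving out WT replicate 1 gave 0.13 and WT replicate 2 gave -0.11, while leaving out replicates 1, 2 or 3 of the SAP-deficient arrays gave -0.06, 0.17 or -0.03. Leaving out 1 array unbalances the numbers, so their differences enter these values. In the same way changes of single genes crossed 0: Slc2a1 ran from -0.08 to 0.17, Hk2 from -0.01 to 0.24, Ldha from -0.07 to 0.05, Pdk1 from -0.03 to 0.34 and Pdk2 from -0.15 to 0.02. With its probe sets averaged, Hif1a was at 0.0017. The median share of variance between replicate numbers ran from 63.5% to 98.0% when a replicate number was left out. The count of members lowest in replicate 2 ran from 26 to 28 under other normalizations, filters and probe sets. That of members highest in replicate 1 ran from 13 to 21 under them, and from 19 to 29 without replicate 2 or 3. These last removals and all counts for replicate 2 were chosen after seeing the data. The block uses accession-order numbers, which the labels do not call pairs, and each array resembled the array of its own number best. Precision is limited by 3 arrays per genotype.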
